A study of Homo sapiens with 3 samples.

Results

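The regions described here are 3076 places in the genome of HuCCT1 cells where a peak of Strawberry Notch 1 (SBNO1) lay on a peak of TATA-box binding protein associated factor 4 (TAF4) at a promoter with genes in 1 direction only. They were chosen from 16147 SBNO1 peaks by position. An SBNO1 peak was kept when it overlapped a TAF4 peak by 1 bp or more (9636 peaks), overlapped no peak of the immunoglobulin control (IgG, 8317 peaks) and had its nearest edge within 1 kb of a transcription start site (TSS) of a protein-coding gene in GENCODE 44 (3780 peaks). Of these 3780 shared promoter peaks, 3076 (81.4%, 95% interval 80.1 to 82.6%) had all protein-coding genes in reach on the same strand and are called one-way, and the other 704 had genes on both strands and are called divergent. Because peak overlap and distance chose the regions, the presence of both proteins near the TSS is a property of the choice and not a result.

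HuCCT1 is a cholangiocarcinoma (CCA) cell line, a cancer line of the bile ducts, and the labels name no treatment. Chromatin immunoprecipitation sequencing (ChIP-seq) was performed with antibodies against SBNO1, against TAF4 and with IgG, on chromatin prepared with an enzymatic kit, and read as single ends of 50 bases. The study had turned to ChIP-seq to follow up an interaction between the 2 proteins. Each antibody had 1 library, made from immunoprecipitates of several cultures pooled before sequencing, so no spread between cultures can be given, no difference was tested with a p-value, and the intervals below cover counting error over regions or genes only.

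TAF4 is a subunit of TFIID, the general transcription factor that contains the TATA-box binding protein and places RNA polymerase II at the core promoter. SBNO1 belongs to the Strawberry Notch family of helicase-like nuclear proteins, first known in flies from its link to the Notch pathway. At a divergent promoter in the usual sense, a pair of protein-coding genes on opposite strands start close to each other and share the DNA between them. At a one-way promoter the nearby DNA serves protein-coding transcription in a single direction. The divergent class here asked only for TSS on both strands within 1 kb of the peak, and their layout was not checked. Sequence-specific factors such as NFY, the KLF/SP family, the ETS family and FOS/AP-1 bind short motifs upstream of many TSS, and the motif of YY1 often lies just inside the gene.

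The DNA under both peaks is shown here for 8 members, chosen for their long overlaps among members with a motif match upstream of or at the TSS. Each stretch has 100 bases in which an exact match to a motif lies inside the overlap of the SBNO1 and the TAF4 peak. Each sequence is from the GRCh38 reference, is read 5′ to 3′ on the strand of the gene and holds no annotated exon of a protein-coding transcript. Capitals mark the motif matches, on either strand, of NFY in CHD1, CRE in GPBP1, NRF1 in EIF1, the E-box in CLTC, FOS/AP-1 in BHLHE40, ETS in WDR89, YY1 in CCM2 and ZBTB33 in ADNP. Matches to other motifs searched are left in lower case, such as a ZNF143 match beside the ETS match in WDR89.
CHD1, chr5:98929051-98929150, GRCh38, minus strand: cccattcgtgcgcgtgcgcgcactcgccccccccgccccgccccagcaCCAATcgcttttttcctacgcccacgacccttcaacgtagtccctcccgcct
GPBP1, chr5:57173674-57173773, GRCh38, plus strand: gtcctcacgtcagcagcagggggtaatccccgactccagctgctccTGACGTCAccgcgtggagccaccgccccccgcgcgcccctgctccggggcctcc
EIF1, chr17:41688684-41688783, GRCh38, plus strand: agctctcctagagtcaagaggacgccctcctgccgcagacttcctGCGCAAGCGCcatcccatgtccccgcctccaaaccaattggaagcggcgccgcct
CLTC, chr17:59619527-59619626, GRCh38, plus strand: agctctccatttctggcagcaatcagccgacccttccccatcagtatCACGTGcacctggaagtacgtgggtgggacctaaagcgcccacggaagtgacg
BHLHE40, chr3:4978874-4978973, GRCh38, plus strand: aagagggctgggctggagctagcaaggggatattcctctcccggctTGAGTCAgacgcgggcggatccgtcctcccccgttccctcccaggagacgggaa
WDR89, chr14:63642448-63642547, GRCh38, minus strand: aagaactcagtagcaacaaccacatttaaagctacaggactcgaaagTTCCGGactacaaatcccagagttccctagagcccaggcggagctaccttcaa
CCM2, chr7:44999723-44999822, GRCh38, plus strand: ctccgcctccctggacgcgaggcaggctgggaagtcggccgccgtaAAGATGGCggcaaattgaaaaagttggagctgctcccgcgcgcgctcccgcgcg
ADNP, chr20:50931610-50931709, GRCh38, minus strand: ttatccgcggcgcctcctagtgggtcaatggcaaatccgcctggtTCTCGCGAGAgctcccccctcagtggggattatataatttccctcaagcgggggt

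CHD1 encodes a chromatin remodeler, GPBP1 a GC-rich promoter binding protein, EIF1 a translation initiation factor, CLTC the clathrin heavy chain, BHLHE40 a basic helix-loop-helix repressor and ADNP a homeodomain protein. Relative to the nearest TSS, the marked matches lay at -93 bp in CHD1, -224 bp in GPBP1, -153 bp in EIF1, -107 bp in CLTC, -514 bp in BHLHE40, -627 bp in WDR89, -415 bp in CCM2 and -223 bp in ADNP. The choice required a match upstream of or at the TSS, so these positions are no result. YY1 matches in members that covered a TSS had a median position of 15 bp, unlike the match in CCM2. The overlap of SBNO1 and TAF4 was 1250 bp in CHD1, 994 bp in GPBP1, 1076 bp in EIF1, 963 bp in CLTC, 1067 bp in BHLHE40, 1191 bp in WDR89, 834 bp in CCM2 and 569 bp in ADNP, each above the median of 347 bp over all members.

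The 3076 peaks lay at 2895 protein-coding genes, which is 14.7% of the 19689 genes annotated, and 6.8% of genes had a divergent shared peak. Most genes (2661) had a single one-way shared peak and 234 had 2 or more. SEPTIN9, which encodes a septin of the cytoskeleton, had 6 such peaks, TNIP1, an inhibitor of NF-kappa-B signalling, had 5, and KRT8, NR4A2 and SMAD3 had 4 each. NR4A2 is an orphan nuclear receptor of the immediate early response, KRT8 a keratin of simple epithelia and SMAD3 a signal transducer of the TGF-beta pathway. These genes with several peaks were picked after their counts were seen. The 4 peaks of SMAD3 had their centres at 109, 52, -811 and 32 bp from the nearest TSS, 3 of them covering a TSS, so they lay at more than 1 annotated start of the gene.

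One-way promoters were common among protein-coding genes in general, since 84.3% of all genes had no opposite-strand protein-coding TSS within 1 kb of any TSS of their own. Among those 16603 genes, 2740 (16.5%) had a one-way shared peak. By gene type, 848 of the 3076 peaks (27.6%, 26.0 to 29.2%) had a TSS of a long non-coding RNA on the opposite strand within 1 kb, so that one-way here refers to protein-coding genes only. When opposite-strand TSS of any gene type counted, the one-way share of shared promoter peaks fell to 56.1%. At 324 peaks (10.5%) the start in reach was an alternative one and the canonical TSS of each gene in reach lay beyond 1 kb.

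The SBNO1 and TAF4 peaks of a member had similar widths and lay almost on top of each other. SBNO1 peaks had a median width of 423 bp (quartiles 323 and 556 bp, range 125 to 1839 bp), and their TAF4 partners one of 450 bp (338 and 602 bp). The overlap had a median of 347 bp and ranged from 32 to 1746 bp, and TAF4 covered a median of 91.6% of the SBNO1 peak. In 969 members (31.5%) the SBNO1 peak lay wholly inside the TAF4 peak and in 645 (21.0%) the TAF4 peak lay wholly inside the SBNO1 peak. The centres were a median of 53 bp apart and within 50 bp of each other in 48.6% of members. Along the direction of the gene, the SBNO1 centre lay 7 bp upstream of the TAF4 centre in the median (median difference -7 bp, interval -9 to -4 bp, quartiles -62 and 43 bp), a shift far smaller than its spread over promoters. With only peaks at or above the median score of their list, this shift was -3 bp with an interval of -7 to 1 bp. Across the 3076 pairs, the 2 widths had a Spearman correlation of 0.453, given as a description because the pairs share their promoters and libraries.

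In position, the SBNO1 peak covered a TSS in 2535 members (82.4%, 81.0 to 83.7%), and its centre lay upstream of the nearest TSS in 2352 (76.5%). The median centre was 78 bp upstream (-78 bp, quartiles -166 and -4 bp). Among members that covered a TSS, the SBNO1 peak reached from a median of -275 bp to 119 bp and the TAF4 peak from -283 bp to 135 bp. Aligned by their nearest TSS, SBNO1 peaks covered the largest share of promoters at -80 bp (88.7%) and TAF4 peaks at -60 bp (90.0%), and the width over which the share was at least 50% of its maximum was 380 bp for SBNO1 and 420 bp for TAF4. IgG peaks, which were excluded only where they overlapped the SBNO1 peak, covered at most 0.325% of these promoters at any position, and 80 members (2.60%) had an IgG peak within 10 kb.

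**Figure D1:**
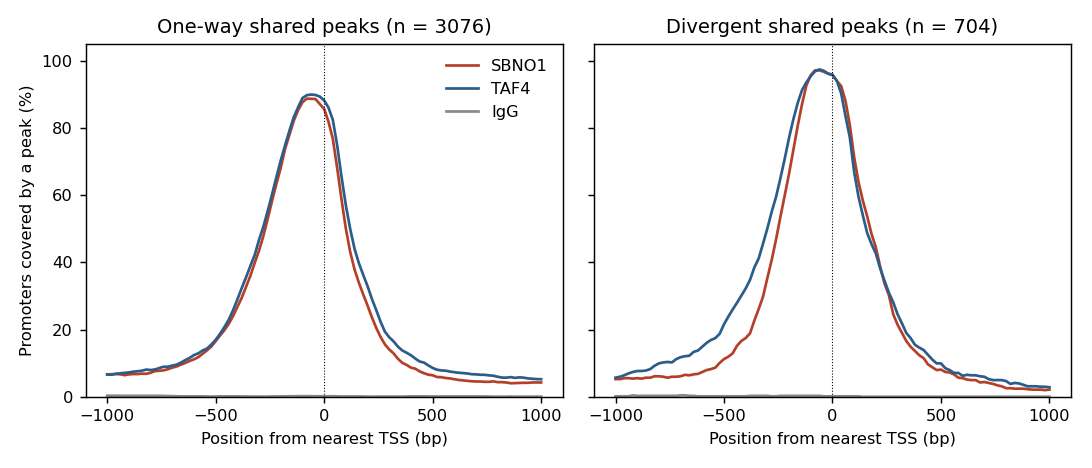
The share of promoters covered by a peak of SBNO1, TAF4 or IgG (%) is plotted against the position from the nearest TSS (bp, negative is upstream along the gene of that TSS) for 3076 one-way and 704 divergent shared promoter peaks. In the one-way class SBNO1 and TAF4 follow each other, with maxima of 88.7% at -80 bp and 90.0% at -60 bp, and IgG stays near 0, both of which the choice of the regions largely fixes.

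Divergent shared peaks were similar to the one-way ones in SBNO1 width, had wider TAF4 peaks and more often covered a TSS. Coverage was highest at -80 bp for SBNO1 and -60 bp for TAF4 in both classes. The SBNO1 median width was 431.5 bp at divergent promoters, a difference of -8.5 bp for one-way minus divergent (interval -24.6 to 4.70 bp), and the TAF4 median width was 489 bp (470 to 516 bp) against 450 bp (440 to 459 bp). The share covering a TSS was 94.5% (92.5 to 96.0%) against 82.4% in the one-way class, where the rule asks for only 1 TSS in reach. At one-way promoters with TAF4 and no SBNO1 peak, of which there were 1756 at 8.7% of genes, the TAF4 peaks were narrower, with a median of 348 bp (340 to 356 bp). At the 707 one-way promoters with SBNO1 and no TAF4 peak, at 3.49% of genes, the SBNO1 peaks had a median width of 353 bp (338 to 370 bp), and 57.1% (53.4 to 60.8%) covered a TSS.

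Scores could be compared only in part, because the deposited score is a whole number that ends at 1000. The SBNO1 score was 1000 in 33.0% of members and the TAF4 score in 55.04%, and 22.5% of members had both at 1000. In the 1060 members with neither at 1000, the scores of the 2 proteins had a Spearman correlation of 0.147. Narrow SBNO1 peaks had high scores, with a median score of 1000 in the 774 narrowest members (at most 323 bp) and of 714.5 in the 770 widest (at least 556 bp). The centres of the narrowest members lay nearer to the TSS, at a median of -52.5 bp against -108 bp in the widest.

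The longest overlaps among members with both scores at 1000 were at CHD1, EIF1, CCNL1, GPBP1, CLTC, ANAPC15, HSPA8 and SGMS2, with 1250, 1076, 1029, 994, 963, 914, 880 and 848 bp. In each of these 8 the SBNO1 peak was wholly inside the TAF4 peak and covered a TSS. CCNL1 encodes a cyclin linked to splicing, ANAPC15 a subunit of the anaphase-promoting complex, HSPA8 the constitutive HSC70 chaperone and SGMS2 a sphingomyelin synthase. At HSPA8 the SBNO1 peak spanned chr11:123061999-123062878 and the TAF4 peak chr11:123061930-123063029. The shortest overlaps were 32 bp at ENSG00000289694 and 47 bp at POLG2, the accessory subunit of the mitochondrial DNA polymerase. At POLG2 the SBNO1 peak (score 299) lay 294 bp upstream of the TSS and only its end touched the TAF4 peak (score 1000).

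At a few genes the 2 centres were far apart. At IER3, an early response gene, an SBNO1 peak of 455 bp lay at the upstream end of a TAF4 peak of 2981 bp that ran downstream, with the centres 1237 bp apart. FOS, the AP-1 subunit gene, had a TAF4 peak of 2360 bp that lay mainly upstream, and 2 SBNO1 peaks of 266 and 407 bp sat on its TSS-side part, with centres at -367 and -55 bp from the nearest TSS. SETD5 had a TAF4 peak of 1845 bp with an SBNO1 peak of 490 bp at its downstream end. RPL10 had an SBNO1 peak of 745 bp that ended 598 bp upstream of the TSS, while the TAF4 peak of 1374 bp covered the TSS. In all, 34 TAF4 peaks were the partner of 2 members each, FOS, SETD5, MYC and PPIA among them.

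**Figure D2:**
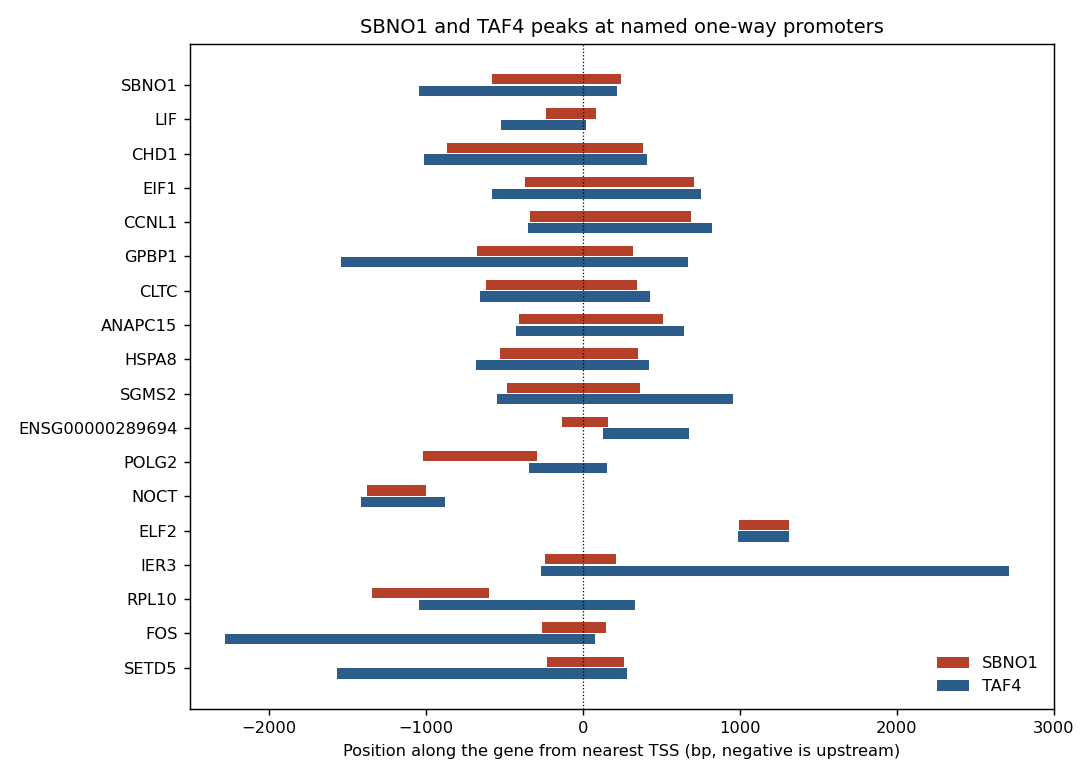
SBNO1 peaks (upper bar of each gene) and TAF4 peaks (lower bar) are drawn along the gene, in bp from the nearest TSS with upstream to the left, for the one-way members named by position or overlap. SBNO1 lies inside TAF4 in the members with long overlaps such as CHD1 and HSPA8, and the TAF4 bars of IER3 (2981 bp) and FOS (2360 bp) extend far to 1 side of the SBNO1 bar.

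The genes examined by the study fell into different classes. LIF, a cytokine of the IL6 family, had a one-way shared peak. Its SBNO1 peak at chr22:30246674-30246995 had a score of 751 and its TAF4 peak at chr22:30246737-30247278 one of 403, and the SBNO1 centre was 75 bp upstream of the TSS. MCM2, a subunit of the replicative helicase, shares its promoter with TPRA1 on the opposite strand and was therefore divergent. The SBNO1 gene itself had a one-way shared peak, with an SBNO1 peak of 822 bp (score 970) and a TAF4 peak of 1258 bp (score 917). TAF4 had no peak of these classes at its own TSS.

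In the last 100 bp inside the 1 kb limit there were 41 members with a median width of 368 bp and a median score of 1000, and in the first 100 bp outside it 30 shared peaks with 442.5 bp and 850.5. The members nearest to the limit were NOCT, with its edge at 1000 bp, and ELF2, at 994 bp, and the peaks just beyond it were at KCTD2, at 1004 bp, and MROH6, at 1009 bp.

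By gene function, one-way shared peaks were frequent at genes of the translation machinery, of splicing and of the early response to growth signals. The 16 gene lists used here are described by counts beside the 14.7% of all protein-coding genes. Of 79 cytosolic ribosomal protein genes, 53 (67.1%, 55.6 to 77.3%) had a one-way shared peak and 18 a divergent one. RPS3, RPL3, RPS26 and RPS23 had the longest overlaps, of 967, 791, 767 and 712 bp, and in all 4 the SBNO1 peak was wholly inside the TAF4 peak. Their SBNO1 scores were 641, 675, 642 and 876, below the cap, while the TAF4 score was 1000 in RPS3, RPS26 and RPS23 and 872 in RPL3. Ribosomal protein genes with one-way promoters carried a peak in 50 of 59 cases (84.7%). Of 46 translation initiation and elongation factors, 25 (54.3%, 39.0 to 69.1%) had a one-way shared peak, among them EIF1, EIF5A, EEF1G and the poly(A) binding protein gene PABPC1. EIF4E, which encodes the cap-binding protein, and EIF4G1, its scaffold, were among the 25 too.

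The immediate early genes are switched on within minutes of a growth signal without new protein synthesis, and 22 of 36 (61.1%, 43.5 to 76.9%) had a one-way shared peak, against 1 with a divergent one. The members included the AP-1 genes FOS, FOSB, FOSL2, JUN, JUNB and JUND, the zinc-finger factor EGR1, SRF, MYC, NR4A1 and NR4A2. A one-way TAF4 peak without SBNO1 was present at 10 other genes of the list, such as KLF4, KLF6, CCN1 and CCN2. Counted in the same way, 1467 of 19663 protein-coding genes had such a peak, so this class was frequent in the list too. IgG peaks lay at 4 of the 36 genes, against 1.41% of all genes, and ATF3 and MCL1 were among these 4. KLF10, FOSL2, MYC and BTG1 had the longest overlaps, of 775, 709, 672 and 575 bp. At JUN the SBNO1 peak of 513 bp covered the TSS with its centre at -113 bp and a score of 915, and at EGR1 the SBNO1 peak of 547 bp lay 311 bp upstream of the TSS with a score of 469. Negative feedback regulators of MAP kinase signalling, which the same signals induce, had a one-way shared peak in 10 of 16 cases (62.5%, 35.4 to 84.8%). These were the phosphatases DUSP4, DUSP5, DUSP6, DUSP7, DUSP10 and DUSP16 and the RAS pathway inhibitors SPRY1, SPRY4, SPRED1 and SPRED2. DUSP6 had an SBNO1 peak of 597 bp and a TAF4 peak of 895 bp, both with a score of 1000.

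LIF belongs to a list of IL6 family ligands, receptors and signal transducers, of which 10 of 20 (50%, 27.2 to 72.8%) had a one-way shared peak and none a divergent one. The ligands with a peak were LIF, IL6 and CLCF1, the receptors were IL6R, IL6ST, OSMR and IL11RA, and the downstream genes included STAT3 and the feedback inhibitor SOCS3. CLCF1 also had an IgG peak at another place near a TSS. IL6ST encodes gp130, the receptor chain that the family shares. No shared peak was at LIFR, OSM, IL11, JAK1 or JAK2. IL6 had an SBNO1 peak of 726 bp (score 644) with its centre 14 bp downstream of the TSS and a TAF4 peak of 943 bp (score 825). STAT3 had an SBNO1 peak of 497 bp and a TAF4 peak of 640 bp, both at 1000. Of these 3 genes LIF had the narrowest peak of either protein and the lowest TAF4 score, while its SBNO1 score was above that of IL6.

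Of the genes for the general transcription machinery, 11 of 34 (32.4%, 17.4 to 50.5%) had a one-way shared peak. They were TAF1, TAF2, TAF5, TAF11, TAF12 and TAF15, the TFIIA subunit gene GTF2A1, GTF2B, GTF2H4 and the CDK-activating kinase genes CDK7 and MNAT1. A divergent shared peak was at TBP, TAF6, TAF9, GTF2E1, GTF2H1 and GTF2H3. The splicing factors of the SR and hnRNP families had a one-way shared peak at 21 of 37 genes (56.8%, 39.5 to 72.9%), with SRSF1, HNRNPR, HNRNPD and HNRNPA0 as the longest overlaps. At SRSF1 the SBNO1 peak was 1473 bp wide and the TAF4 peak inside its borders 741 bp.

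Cyclins and CDK regulators had a one-way shared peak at 15 of 32 genes (46.9%, 29.1 to 65.3%), CDK4, CDK6, CCNB1 and the inhibitor genes CDKN1B and CDKN2A among them, while CCND1 and CDKN1A had a one-way TAF4 peak without SBNO1. Ubiquitin and E2 conjugating enzyme genes had one at 15 of 33 (45.5%, 28.1 to 63.6%), with UBE2R2, an E2 enzyme gene, as an example with an SBNO1 peak of 809 bp and a TAF4 peak of 651 bp. Heat shock protein genes divided between both promoter classes, with 13 of 27 (48.1%, 28.7 to 68.1%) one-way and 10 divergent. HSPA8, HSPA5, HSP90AA1 and HSP90AB1 were one-way, and HSPD1 and HSPE1, which start on opposite strands of 1 promoter, were divergent. HSPA1A and HSPA1B are near-identical copies whose short reads are hard to place, so their peaks are uncertain.

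The lists of DNA replication and of the mitochondrial ribosome had nearly as many or more divergent than one-way peaks. Of 42 DNA replication genes, 6 (14.3%, 5.43 to 28.5%) had a one-way shared peak, which is close to the 14.7% of all genes. They were CDC6, POLA2, PCNA, RFC2, RPA2 and TOP2A, while 8, MCM2, MCM4 and ORC1 among them, had a divergent one and 13 had either. Of 77 mitochondrial ribosomal protein genes, 23 (29.9%, 19.97 to 41.4%) had a one-way and 22 a divergent shared peak. Only 58.4% of these genes and 59.5% of the replication genes had one-way promoters, against 84.3% of all genes.

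YAP and TEAD pathway genes had a one-way shared peak at 9 of 22 (40.9%, 20.7 to 63.6%), namely YAP1, WWTR1, TEAD4, STK4, MOB1A, AMOTL1, AMOTL2, ANKRD1 and AXL. Notch pathway genes had one at 5 of 20 (25%, 8.66 to 49.1%), the receptor NOTCH2, the ligand JAG1, the DNA-binding factor RBPJ and the co-activators MAML1 and MAML2. IgG peaks lay at HES1 and NUMB, 2 of the 20. Of 12 biliary epithelium markers, KRT19, KRT8 and SOX9 were among the members (25%, interval 5.49 to 57.2%), KRT7, EPCAM and CDH1 were among those that had a one-way TAF4 peak without SBNO1, and SPP1, CFTR and ONECUT1 had no peak. None of 8 hepatocyte markers had a shared peak (interval 0 to 36.9%), and SERPINA1 had a one-way TAF4 peak without SBNO1. Both intervals contain the 14.7% of all genes, and a peak does not measure expression, so these counts do not check the cell type.

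**Figure D3:**
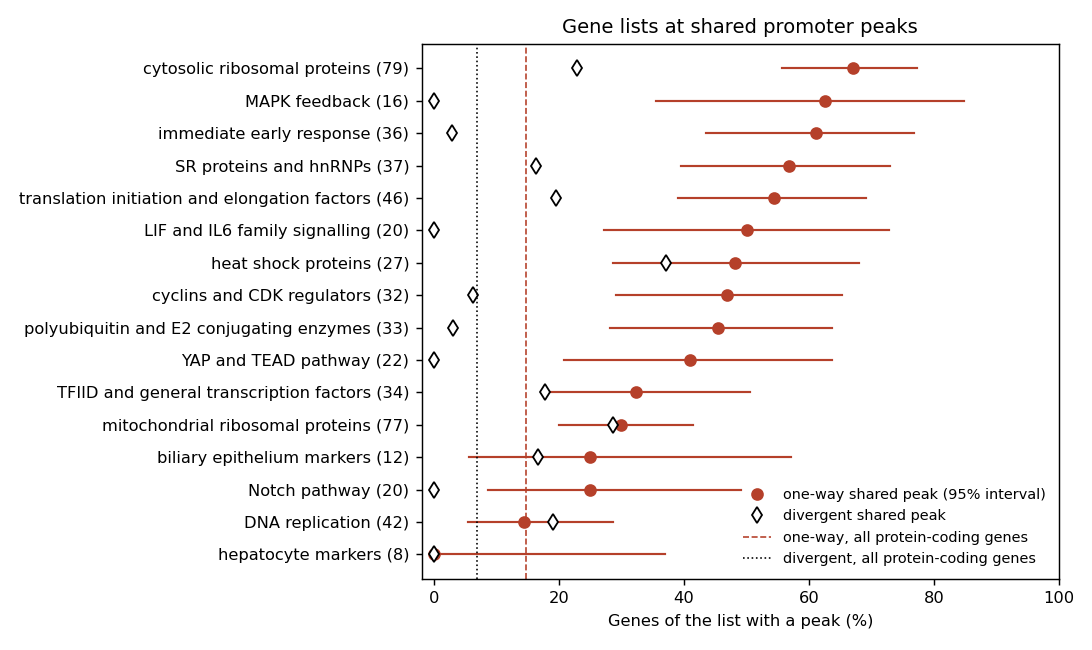
The share of each gene list (%) with a one-way shared peak is plotted as filled points with 95% Clopper-Pearson intervals and the share with a divergent shared peak as open diamonds, with the number of genes in parentheses and the shares of all protein-coding genes, 14.7 and 6.8%, as vertical lines. Cytosolic ribosomal proteins (67.1%) and MAPK feedback genes (62.5%) lie highest and DNA replication genes (14.3%) lie on the background.

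These lists were chosen with earlier results of these data known, and no test of a list was run. Restricted to peaks at or above the median score of their list, 1091 members remained, the share of all genes fell to 5.53%, and the shares were 48.1% for cytosolic ribosomal proteins, 22.2% for immediate early genes and 18.8% for MAPK feedback genes.

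The motifs searched were exact matches on either strand in 200 bp at the centre of the SBNO1 peak (TAF4 peak for TAF4 without SBNO1). Written on 1 strand they were CCAAT for NFY, GGGCGG for KLF/SP, CCGGAA for ETS, TGACTCA for FOS/AP-1, CACGTG for the E-box, TATAAA for the TATA box, ACTACAA for ZNF143 and the longer motifs of CRE, NRF1, ZNF148/ZNF281, YY1, ZBTB33 and E2F. Of windows of the same length at the start of all protein-coding genes, 25.2% held NFY, 53.9% KLF/SP, 17.8% ETS, 2.11% FOS/AP-1, 5.61% the E-box, 6.62% the TATA box, 1.66% ZNF143, 2.04% CRE, 6.10% NRF1, 12.04% ZNF148/ZNF281, 3.75% YY1, 0.467% ZBTB33 and 0.401% E2F. Among the 3076 members 56.4% held KLF/SP, 33.5% NFY, 24.8% ETS, 10.7% ZNF148/ZNF281, 7.80% the E-box, 7.02% NRF1, 6.66% FOS/AP-1, 4.97% YY1, 3.804% the TATA box, 3.25% ZNF143, 3.02% CRE, 1.40% ZBTB33 and 0.455% E2F. No match to any of the 13 was in 12.5% of members. The windows of all genes lay at the TSS and those of the members at the SBNO1 centre, a median of -78 bp from the TSS. Because motif shares change with position, these 2 sets of shares are not a like comparison.

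One-way and divergent shared peaks differed most in ETS and FOS/AP-1. ETS matches were in 24.8% of one-way and 34.1% of divergent windows, a difference of -9.32 percentage points (interval -13.2 to -5.57). FOS/AP-1 matches were in 6.66% against 2.56%, a difference of 4.11 points (2.44 to 5.43). Among peaks that covered a TSS, the differences were -7.61 points (-11.7 to -3.66) for ETS and 2.69 points (1.21 to 3.82) for FOS/AP-1. In windows of 100 bp the FOS/AP-1 difference was 1.83 points (0.525 to 2.77). For NFY and KLF/SP the intervals of the difference, -5.88 to 1.92 and -6.00 to 2.06 points, included 0. Mean GC content was 62.5% in one-way and 61.8% in divergent windows.

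Set beside one-way TAF4 peaks without SBNO1, the members held more ETS (24.8 against 21.4%, difference 3.42 points, 0.938 to 5.84), FOS/AP-1 (6.66 against 3.93%, 2.74 points, 1.43 to 3.98), YY1 (4.97 against 3.47%, 1.5 points, 0.301 to 2.62) and ZBTB33 matches (1.40 against 0.114%, 1.28 points, 0.816 to 1.77). ZBTB33, or Kaiso, is a zinc-finger protein whose motif reads the same on both strands, and its matches were in 43 of 3076 members and in 2 of 1756 peaks of TAF4 alone. The ZBTB33 share was 1.41% in one-way SBNO1 peaks without TAF4 and 1.28% in divergent shared peaks, close to that of the members. In windows of 100 bp the differences were 0.973 points for FOS/AP-1 (-0.0170 to 1.89) and 0.608 points for YY1 (-0.219 to 1.36), and both intervals included 0. NRF1 and ZNF148/ZNF281 matches were fewer in members, by differences of -1.98 points (-3.64 to -0.401) and -1.92 points (-3.86 to -0.0617). KLF/SP matches were fewer in members (56.4 against 65.2%, -8.83 points, -11.6 to -5.98), but the TAF4 windows were richer in GC (66.0 against 62.5%), and at like GC content the KLF/SP difference was 0.509 points in the other direction. The other differences of this comparison kept their sign at like GC content, but their sizes there are not given.

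Set beside one-way SBNO1 peaks without TAF4, members held more KLF/SP (56.4 against 35.5%), NFY (33.5 against 21.9%) and ETS matches (24.8 against 18.0%) and fewer FOS/AP-1 matches (6.66 against 14.9%, -8.19 points, -11.1 to -5.58). The mean GC content of those windows was 57.1%. Fewer of those peaks covered a TSS, 57.1% against 82.4% of members, and motif shares differed with distance to the TSS, as given below. The contrast was not repeated with TSS-covering peaks only, so the part of distance in it was not tested. One-way TSS with none of the peaks held ETS matches in 11.9%, YY1 in 1.01% and the TATA box in 9.54% of 12407 windows, placed at -78 bp.

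**Figure D4:**
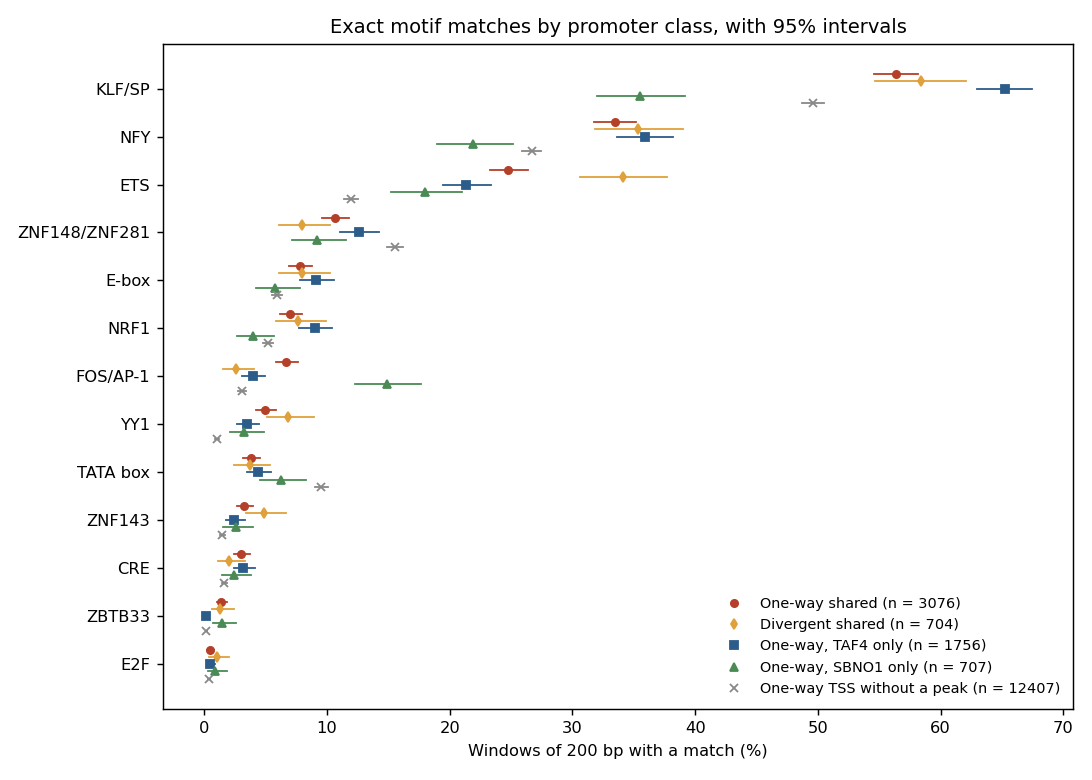
The share of 200 bp windows (%) with an exact motif match is plotted for 5 promoter classes, with 95% Clopper-Pearson intervals as lines. For ETS the divergent class (34.1%) lies above the one-way shared class (24.8%), and for FOS/AP-1 the one-way shared class (6.66%) lies between TAF4 alone (3.93%) and SBNO1 alone (14.9%).

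Members near and away from the TSS held different motifs. FOS/AP-1 matches were in 4.34% (3.58 to 5.21%) of the 2535 members that covered a TSS, in 9.21% (5.86 to 13.6%) of the 239 with an edge 1 to 250 bp away and in 24.2% (19.5 to 29.4%) of the 302 farther away, up to 1000 bp. At SBNO1 peaks on TAF4 over 10 kb from any TSS the share was 38.3%. ETS matches went the other way, with 27.6, 15.9 and 8.28% in the same 3 classes, and so did KLF/SP, with 60.3, 47.7 and 30.1%. Mean GC content was 63.5, 60.7 and 55.3%, and its part in these shares was not tested. The SBNO1 median width in these classes was 430 (421 to 438), 392 (365 to 408) and 409.5 bp (383 to 428). The median distance between the SBNO1 and TAF4 centres was 51 (47 to 54), 67 (57 to 77) and 61 bp (51 to 68). Members that covered a TSS thus had somewhat wider peaks and closer centres than those 1 to 250 bp away.

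The 73 members over 250 bp away with a FOS/AP-1 match included TRIM8, SPAG9, VCL, PRSS22, SH2D3A and LAMC1 as those with the longest overlaps, of 717, 668, 615, 587, 525 and 506 bp. VCL encodes vinculin of the focal adhesions and LAMC1 a laminin chain of the basement membrane. The VCL peak lay 884 bp downstream of the TSS and the LAMC1 peak 569 bp upstream. These genes were picked after the distance classes were seen.

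Within the members that covered a TSS, most motifs searched lay upstream of the TSS in the reach counted, and YY1 lay downstream. The SBNO1 peaks of these members reached from a median of -275 bp to 119 bp. The medians and shares upstream left out matches far downstream that the 20 bp steps, from -300 to 280 bp, did count. The shares upstream therefore depend on this uneven reach and are not shares over the reach of the steps. NFY matches had a median position of -93 bp, with 88.3% upstream of the TSS, KLF/SP matches one of -73 bp, and ETS matches one of -47 bp. YY1 matches lay downstream, at a median of 15 bp, with 32.6% upstream. The 20 bp step with the most members holding a match was -80 to -60 bp for NFY (9.39% of members), -60 to -40 bp for KLF/SP (19.3%), -20 to 0 bp for ETS (7.65%) and 0 to 20 bp for YY1 (2.88%). In such steps ZNF148/ZNF281 was about as frequent far downstream, with 2.01% of members at -40 to -20 bp and 1.81% at 240 to 260 bp. The matches were about as near to the SBNO1 as to the TAF4 centre. Of 835 ETS matches alone in their peak pair, 50.3% (46.9 to 53.7%) lay nearer to the SBNO1 centre, and for NFY 52.3% of 833 (48.9 to 55.8%) did. ZNF148/ZNF281 was an exception, with 42.8% of 530 matches (38.6 to 47.2%) nearer to the SBNO1 centre, and thus more of them nearer to TAF4.

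**Figure D5:**
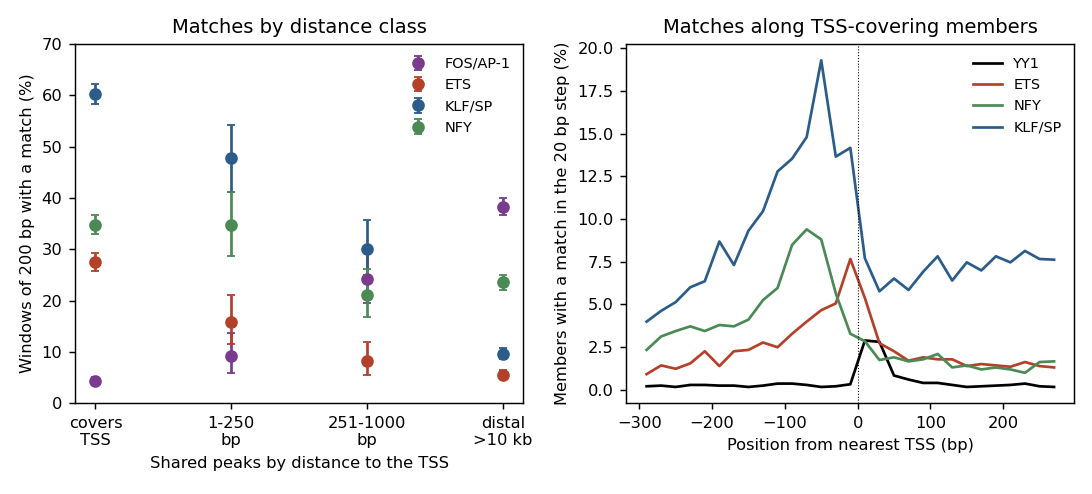
On the left, the share of 200 bp windows (%) with a match is plotted for shared peaks that cover a TSS, lie 1 to 250 bp or over 250 and up to 1000 bp away, or lie over 10 kb away, with 95% Clopper-Pearson intervals. FOS/AP-1 goes from 4.34 to 38.3% and ETS from 27.6 to 5.56%. On the right, the share of TSS-covering members (%) with a match in steps of 20 bp is plotted against the position from the nearest TSS (bp), where YY1 is highest just downstream of 0 and NFY upstream of it.

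A TATA box in its usual place, taken as -40 to -20 bp from the TSS, was found at 48 members (1.56%, 1.15 to 2.06%), 2.16% (1.54 to 2.96%) of one-way TAF4 peaks without SBNO1, 0.990% (0.399 to 2.03%) of one-way SBNO1 peaks without TAF4 and 4.93% (4.56 to 5.33%) of one-way TSS without a peak. The lower share was thus common to the bound one-way classes. Their genes included HEXIM1, an inhibitor of the elongation factor P-TEFb, the chaperone HSPA1B, the EGF receptor ligands EREG and AREG, FOSB, JUNB, PTGS2, CXCL8 and several replication-dependent histone genes such as H4C1 and H3C2. Overlaps of SBNO1 and TAF4 there reached 1006 bp at HEXIM1 and 933 bp at HSPA1B.

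Motifs also varied with peak width. ETS matches were in 34.8% (31.4 to 38.2%) of the 774 narrowest members and in 19.5% (16.7 to 22.5%) of the 770 widest, a difference of 15.3 points (10.9 to 19.6). KLF/SP differed by 9.69 points (4.73 to 14.6) in the same direction. The narrowest and widest members also differed in median centre (-52.5 against -108 bp from the TSS) and in mean GC content (63.7 against 61.2%). The part of either in these differences was not tested. Of 54 member peaks at ribosomal protein genes, 25 (46.3%, 32.6 to 60.4%) held an ETS and none a FOS/AP-1 match (interval 0 to 6.60%), beside 24.8 and 6.66% of all members. Of 32 peaks at immediate early genes, 22 (68.8%, 49.99 to 83.9%) held KLF/SP, 4 (12.5%, 3.51 to 29.0%) ETS and 3 (9.38%, 1.98 to 25.02%) CRE, and each of these intervals contains the share over all members (56.4, 24.8 and 3.02%). Members with a long non-coding RNA TSS on the other strand held fewer FOS/AP-1 matches than those without (3.89 against 7.72%, -3.83 points, -5.45 to -1.99) and slightly more ETS (27.5 against 23.7%, 3.73 points, 0.316 to 7.28).

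The presence of further SBNO1 peaks nearby was shared by the one-way classes. An SBNO1 peak free of IgG and over 1 kb from any TSS lay within 10 kb of 535 members (17.4%, 16.1 to 18.8%) and of 40 divergent shared peaks (5.68%, 4.09 to 7.66%). The share was 17.7% (14.9 to 20.7%) for one-way SBNO1 peaks without TAF4 and 14.5% (12.9 to 16.2%) for one-way TAF4 peaks without SBNO1. Within 50 kb the shares were 44.7% (42.9 to 46.4%) of members, 29.7% (26.3 to 33.2%) of divergent shared peaks, 46.1% of SBNO1 peaks without TAF4 and 38.4% of TAF4 peaks without SBNO1.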

How the data were processed

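ChIP-seq of SBNO1, TAF4 and IgG in HuCCT1 cells gave 3 peak lists, 1 library per antibody, and samples were grouped by the antibody named in the labels. The deposited score of each peak is the authors' value, a whole number with a maximum of 1000 whose scaling is not given in the sources used here. The submitters' processing notes name Bowtie2 2.5.4, Genrich 0.6.1 and GRCh38.p14, while the study's methods name ktrim, bowtie2 and, for peak calling, normR. The peak threshold and whether IgG served as control in the calls are not given in the sources used here. The lists hold no read numbers, so the depth is unknown, and peaks of a deeper library can be wider and more numerous.

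Peaks were compared as deposited, in 1-based GRCh38 coordinates, with 78567 protein-coding TSS of 19689 genes from GENCODE 44, and an overlap of 1 bp was enough for a shared peak. A member's TAF4 partner was the TAF4 peak with the longest overlap, and its position refers to the nearest TSS. Distances run from the nearest peak edge, and a gene had a member peak when any of its TSS was within 1 kb. Motifs were exact matches in 200 bp at the centre of the peak, since no summit was given. Unbound windows were centred at -78 bp from the TSS of genes without a peak. Shares have exact 95% Clopper-Pearson intervals, differences of shares Newcombe intervals and medians order-statistic intervals. With 1 library per antibody there was no test and no p-value. Of 542 list genes, 541 matched the annotation.

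The members and the gene and motif lists were chosen with earlier results of these data known. Named genes followed a rule: the study's examples LIF and MCM2, the SBNO1 gene, the 8 longest overlaps with both scores at 1000, up to 4 longest overlaps per gene list, the 2 shortest overlaps, the 2 peaks nearest to either side of the 1 kb limit and the 2 most displaced centres in each direction. Printed sequences were, for 8 of the motifs, the member with the longest overlap, and none came from chromosome 8. Their match had to lie inside the overlap and upstream of or at the TSS. Some list genes and sequences are not reported here. Other names are list members or were picked after their values were seen. The class and motif functions were tested on simulated data, where 4000 of 4000 peaks and 3000 of 3000 windows were classed correctly. Python 3.11.15, numpy 2.4.6, scipy 1.17.1, pysam 0.24.0, samtools 1.23.1 and matplotlib 3.10.9 were used. As alternatives, the TSS set, the distance limit, the overlap rule, a score minimum, the motif window and the GC weighting were varied.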

Additional observations from a re-analysis of the deposited data

How the results depend on the processing

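No paired analysis was possible because there was a single library for each antibody. Of 410 values recomputed under alternatives, 342 stayed within their interval (counts within 1.5 times), 65 moved and 3 changed sign, and 76 of 79 recomputed motif differences whose interval excluded 0 kept their sign. The cause of the shifts was not tested. The one-way share of shared promoter peaks was 84.6% with 1 TSS per gene, 83.0% within 500 bp and 56.1% with opposite-strand TSS of any gene type. The share covering a TSS was 78.9% with 1 TSS per gene (median centre -110 bp), 87.2% within 500 bp, 72.7% within 3 kb, 84.7% by the peak centre, 83.8% with 50% reciprocal overlap and 85.7% at or above the median score. That score filter left 1091 peaks at 1087 genes, with median widths of 370 and 413 bp for SBNO1 and TAF4, a centre offset of -3 bp and 94.8% of the SBNO1 peak covered. Median widths were 433 and 460 bp with IgG peaks kept, and the TAF4 width was 438 bp with opposite-strand TSS of any type. In 100 bp windows the members' shares were 37.2% for KLF/SP, 14.4% for ETS and 3.25% for FOS/AP-1, and the FOS/AP-1 differences were 1.83 points against divergent peaks and 0.973 points against TAF4 alone. In windows centred on the TSS the shares were 60.2, 26.6 and 4.19%, and KLF/SP differed from divergent peaks by 2.25 points. With opposite-strand TSS of any type, FOS/AP-1 was in 7.88% of members, and the ZNF143 difference from divergent peaks turned to 0.306 points. The ZNF148/ZNF281 difference from divergent peaks turned to -0.0181 points in 100 bp windows, and the KLF/SP difference from TAF4 alone turned to 0.509 points at like GC content. Gene list shares at or above the median score were 48.1% for cytosolic ribosomal proteins, 22.2% for immediate early genes, 18.8% for MAPK feedback and 4.76% for DNA replication, with 5.53% of all genes. With opposite-strand TSS of any type, ribosomal proteins were at 43.0% and immediate early genes at 33.3%, with 10.3% of all genes, and among genes with one-way promoters ribosomal proteins were at 84.7%. The settings of TSS-covering peaks only, windows on the TAF4 peak, genes with one-way promoters and, for the gene lists, IgG peaks kept were chosen after seeing the data. Without read numbers, the depth behind a missing peak is unknown.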

Other observations

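The members were spread unevenly over the chromosomes. The share of protein-coding genes with a one-way shared peak was 24.5% (21.7 to 27.5%) on chromosome 5, 20.1% (17.8 to 22.5%) on chromosome 17 and 18.9% (15.9 to 22.3%) on chromosome 14, against 14.7% over all chromosomes. It was 3.796% (2.61 to 5.32%) on chromosome 16, 4.20% (2.11 to 7.39%) on chromosome 18 and 8.53% (6.07 to 11.6%) on chromosome 22. On chromosome X it was 6.92% (5.31 to 8.83%), and 1 of 63 genes on chromosome Y had such a peak. The share of genes with a one-way TAF4 peak without SBNO1 differed less, with 9.63% on chromosome 5, 7.94% on chromosome 17, 7.59% on chromosome 16 and 8.78% on chromosome 18. Outside chromosome Y it ranged from 5.42% on chromosome 11 to 10.8% on chromosome 20. Divergent shared peaks were at 9.29% of genes on chromosome 5, 10.3% on chromosome 17, 3.08% on chromosome 16 and 1.53% on chromosome 18.

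The centre of a member's SBNO1 peak lay outside protein-coding genes in 53.1% of members, in an intron in 23.8%, in an untranslated exon in 20.4% and in a coding exon in 2.67%. CLTC and STAT3 were examples outside genes, NOTCH2 and WWTR1 examples in an intron, and EIF1 and RPL3 examples in a coding exon.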
